A study of Homo sapiens with 6 samples.

Results

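Small nucleolar RNA and Cajal body RNA genes were examined in RNA-Seq libraries of 2 human cancer cell lines after knockdown of SPOP, a substrate adaptor of the CUL3 ubiquitin ligase. The genes were taken by name: every symbol that begins with SNORA, SNORD or SCARNA and a digit, stands alone in its row and has more than 0 FPKM in at least 1 library. Of 24551 gene symbols, 356 carry such a name and 58 met the rule, while the other 298 were listed at 0 in every library. The 6 libraries come from DU145, a prostate cancer line, and from 769-P cells, a line of clear cell renal carcinoma. In each line 1 library is from cells given a control siRNA (NC), 1 from cells given SPOP siRNA 1 and 1 from cells given SPOP siRNA 2. The labels name no other agent, allele or time, and both lines are single established lines. The 2 siRNA libraries of a line served as its replicates, the control has none, and nothing in the labels says that they come from separate cultures, so p-values measure only the spread between these libraries. The renal factor PAX8 had 106 to 125 FPKM in 769-P against 1.10 to 1.47 in DU145, while CA9 was at 0 in 769-P. In DU145 FOXA1, a factor of prostate and other epithelia, had 18.2 to 33.5 FPKM against 2.74 to 3.05 in 769-P, while HOXB13 and KLK3 were at 0.312 FPKM or less. SPOP fell to 17.2% and 18.4% of the control in DU145 and to 13.2% and 12.0% in 769-P.

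Small nucleolar RNAs guide the chemical modification of ribosomal RNA in the nucleolus. H/ACA RNAs (SNORA) direct the conversion of uridine to pseudouridine, C/D RNAs (SNORD) direct methylation of the ribose, and RNAs of the Cajal body (SCARNA) do the same for the RNAs of the spliceosome. In human cells most of them are cut out of introns of a host gene, often a gene for a ribosomal protein, and they carry no poly(A) tail. A few C/D and H/ACA RNAs act in cleavage of the ribosomal RNA precursor instead. The libraries were made from RNA selected by its poly(A) tail and, per the labels, from cDNA of 200 to 400 bp, longer than the typical length of the SNORA genes here (median 134 bases) and of the SNORD genes (median 90 bases).

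The RNAs that carry the results are shown as read from GRCh37, 5′ to 3′, with DNA letters. Capitals mark the ACA that ends 3 bases before the 3′ end of an H/ACA RNA, or the TGATGA (C box) and CTGA (D box) within 25 bases of the ends of a C/D RNA, on the RNA strand only. SNORA10 and SNORA64 lie in introns of the same ribosomal protein gene, SNORA70 was above 0 in the most libraries of any H/ACA RNA, and SNORA57 had the highest value relative to its length in the DU145 control. SNORD12 stands for the short C/D RNAs of the DU145 siRNA 2 library, SNORD17 is the longest C/D RNA detected, and SCARNA12 was the most abundant Cajal body RNA. SCARNA12 is printed without capitals.
SNORA10: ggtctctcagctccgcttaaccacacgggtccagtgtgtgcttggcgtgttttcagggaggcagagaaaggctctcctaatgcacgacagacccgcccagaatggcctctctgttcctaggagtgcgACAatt
SNORA64: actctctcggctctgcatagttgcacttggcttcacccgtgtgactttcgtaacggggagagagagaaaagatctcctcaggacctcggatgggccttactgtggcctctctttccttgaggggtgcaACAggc
SNORA70: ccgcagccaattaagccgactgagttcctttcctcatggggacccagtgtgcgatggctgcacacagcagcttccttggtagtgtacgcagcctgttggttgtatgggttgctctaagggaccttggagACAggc
SNORA57: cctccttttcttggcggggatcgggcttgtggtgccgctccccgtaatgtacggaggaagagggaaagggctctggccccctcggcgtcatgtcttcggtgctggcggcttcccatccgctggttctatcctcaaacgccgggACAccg
SNORD12: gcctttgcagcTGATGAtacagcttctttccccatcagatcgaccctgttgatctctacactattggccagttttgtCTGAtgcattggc
SNORD17: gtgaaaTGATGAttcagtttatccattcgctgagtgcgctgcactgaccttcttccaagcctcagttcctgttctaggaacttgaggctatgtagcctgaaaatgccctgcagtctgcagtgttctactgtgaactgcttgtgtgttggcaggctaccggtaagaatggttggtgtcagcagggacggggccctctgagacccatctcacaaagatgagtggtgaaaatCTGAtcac
SCARNA12: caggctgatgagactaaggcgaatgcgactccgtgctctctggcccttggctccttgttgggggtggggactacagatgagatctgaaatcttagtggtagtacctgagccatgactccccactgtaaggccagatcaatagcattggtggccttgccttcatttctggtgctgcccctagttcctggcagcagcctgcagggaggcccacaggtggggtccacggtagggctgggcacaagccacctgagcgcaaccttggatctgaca

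By the GENCODE annotation of GRCh37, SNORA10 is at chr16:2012335-2012467 and SNORA64 at chr16:2012974-2013107, both on the minus strand and both within RPS2. SNORA70 is at chrX:153628622-153628756 on the plus strand in RPL10, and SNORA57 at chr11:62432894-62433042 on the plus strand in CSKMT. SNORD12 is at chr20:47897220-47897309 on the plus strand in the noncoding gene ZFAS1, SNORD17 at chr20:17943353-17943589 on the minus strand in SNX5, and SCARNA12 at chr12:7076500-7076769 on the minus strand in PHB2. The site of SNORA10 is intronic in 11 of the 12 RPS2 transcripts that span it, and that of SNORD17 in all 7 SNX5 transcripts. For the other 5 RNAs between 1 and 4 of the spanning host transcripts hold part of an exon there. All 21 detected genes that could be placed inside an annotated host lie on its strand, so reads from the host precursor and reads from the small RNA cannot be told apart. Of the listed SNORA genes, 45 of 94 could be placed, and 86.7% of those have the ACA in that position. Of the listed SNORD genes, 79 of 241 could be placed, 75.9% of which have both boxes within those windows.

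The 3 classes differed in how often they were seen. Of 94 listed SNORA genes 34 were above 0 in at least 1 library (36.2%), against 17 of 241 SNORD genes (7.05%) and 7 of 21 SCARNA genes (33.3%). In single libraries, SNORA genes above 0 numbered 17 in the DU145 control, 10 with siRNA 1 and 6 with siRNA 2, and 8, 6 and 6 in the same order in 769-P. SNORD genes numbered 3, 0 and 11 in DU145 and 4, 3 and 3 in 769-P. SCARNA genes numbered 5, 3 and 2 in DU145 and 4, 3 and 5 in 769-P. The DU145 control thus had the most SNORA genes and the DU145 siRNA 2 library the most SNORD genes, while SCARNA counts ranged from 2 to 5. The DU145 control also had the most genes of any kind above 0, 18352 against 13917 to 17378 in the other libraries. Olfactory receptor genes were taken as a measure of background. Of 384 such genes 301 were above 0 in the DU145 control, against 250 in 769-P siRNA 2 and 4 to 6 in the remaining 4. The part of that background in the counts was not tested. MicroRNA genes above 0 numbered 7 in the DU145 control and 4 to 8 in the others.

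**Figure D1:**
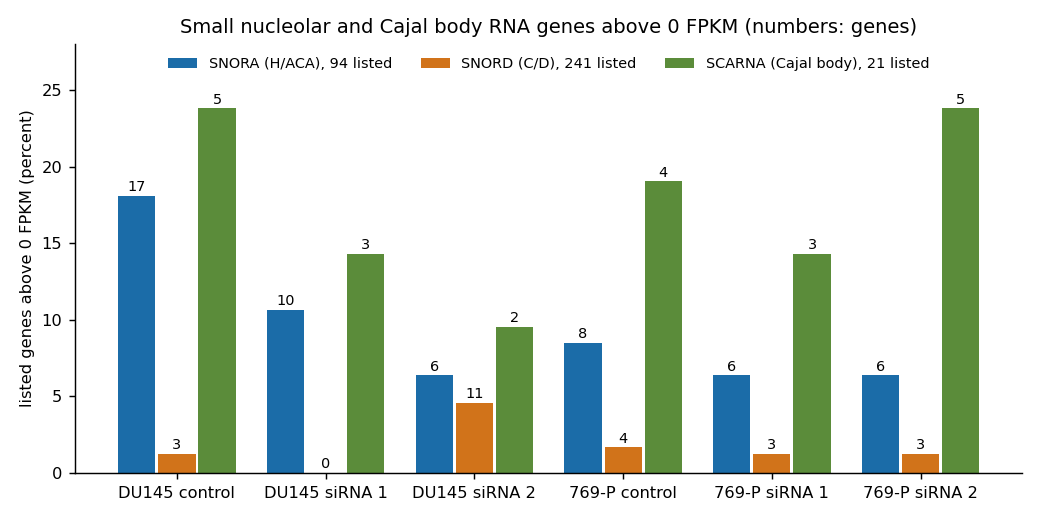
Percent of the listed genes of each class above 0 FPKM in each of the 6 libraries, with the number of genes printed on each bar (SNORA blue, SNORD orange, SCARNA green). SNORD genes stay under 5% of those listed in every library, and 11 of them are above 0 in DU145 siRNA 2 against 0 to 4 in the others.

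Longer genes were detected more often. Of genes under 80 bases 5.74% were above 0 in any library, of those from 80 to 99 bases 5.10%, of those from 100 to 124 bases 5.88%, of those from 125 to 149 bases 34.3%, of the 4 from 150 to 199 bases 25%, and of those from 200 to 499 bases 69.2%. The median length of the 17 detected SNORD genes was 90 bases, against 78 for the 224 listed at 0. Within the bin of 125 to 149 bases, 32 of 84 SNORA genes, 3 of 6 SNORD genes and 0 of 12 SCARNA genes were above 0. The 7 detected SCARNA genes were 266 to 420 bases long, and the 14 at 0 had a median of 132.5 bases. SNORA genes make up 84 of the 102 genes in that bin, and SNORD genes 234 of the 237 under 125 bases, so class and length cannot be told apart in these counts.

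Few genes recurred. Of the 58 genes, 38 were above 0 in 1 library only, 11 in 2, 3 in 3 libraries, 2 in 4, 2 in 5 and 2 in all 6. The genes found in no other library made up 57.9% of those in DU145 siRNA 2, 42.9% in 769-P siRNA 2, 38.5% in DU145 siRNA 1 and between 25% and 33.3% in the remaining 3. Above 0 in both lines were 15 genes, in DU145 only 28 and in 769-P only 15, and 0 genes were above 0 in all 3 libraries of one line and at 0 in all 3 of the other. This split was not counted over all genes, so it is not read as a difference between the lines. The DU145 control, with 301 of 384 olfactory receptor genes above 0, held 25 genes, 8 of them in no other library. For 769-P siRNA 2, with 250, these numbers were 14 and 6. The part of that background in the split was not tested. The 2 siRNA libraries of DU145 shared 3 genes, 23.1% of the 13 in siRNA 1 and 15.8% of the 19 in siRNA 2. The DU145 control and the 769-P control shared 10, 40% of 25 and 62.5% of 16. Over all 15 pairs of libraries the shared genes numbered 3 to 10, and the 2 siRNA libraries of 769-P shared 5, 41.7% of 12 and 35.7% of 14. The lists differ in size, from 12 to 25 genes, and no pair was tested against another.

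The levels were read against what a single fragment is worth. FPKM divides fragments by gene length and by the library total, and for genes shorter than the fragments the Cufflinks value of 1 fragment rises steeply as the gene gets shorter. In each library a length-dependent step was fitted so that as many values as possible lay within 5% of a whole multiple of it. At 126 to 154 bases 58 of 58 values then lay within 2.5%. The step was chosen from these same values, 5 to 19 per library with other small RNA genes included, so that count is no independent check of the fit. At 60 to 105 bases 13 of 13 values were within the 5% that the fit itself used, on 4 to 13 values per library with other small RNA genes included, so this count is no check of the fit and the steps of those short genes are less certain. Each fit took 1 of the values as 1 step and, among equally good fits, kept the one with the fewest steps. The counts of steps are therefore the lowest that fit, and 1 step could be more than 1 fragment. The step was taken as 1 fragment, since no read counts are in the files. Of the 71 values of the 49 genes of up to 154 bases, 53 were at 1 step, 15 at 2, 1 at 3 and 2 at 4. Over all 6 libraries, 29 of the 49 genes had a total of 1 step and 42 had 3 or fewer.

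Genes of the same length showed the steps without any fit. In the DU145 control SNORA60, SNORA65 and SNORA71B, all 136 bases long, each had 12.7 FPKM, and SNORA10 and SNORA15, both 133 bases long, each had 14.1 FPKM. In the 769-P control SNORA10 had 126 FPKM and SNORA21, of the same length, 31.6 FPKM, a ratio of 4. In DU145 siRNA 2 SNORD80 had 438 FPKM and SNORD56, also of 71 bases, 219 FPKM, a ratio of 2. In all 11 such sets of equal-length genes within a library, each value lay within 0.25% of a whole multiple of the lowest.

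**Figure D2:**
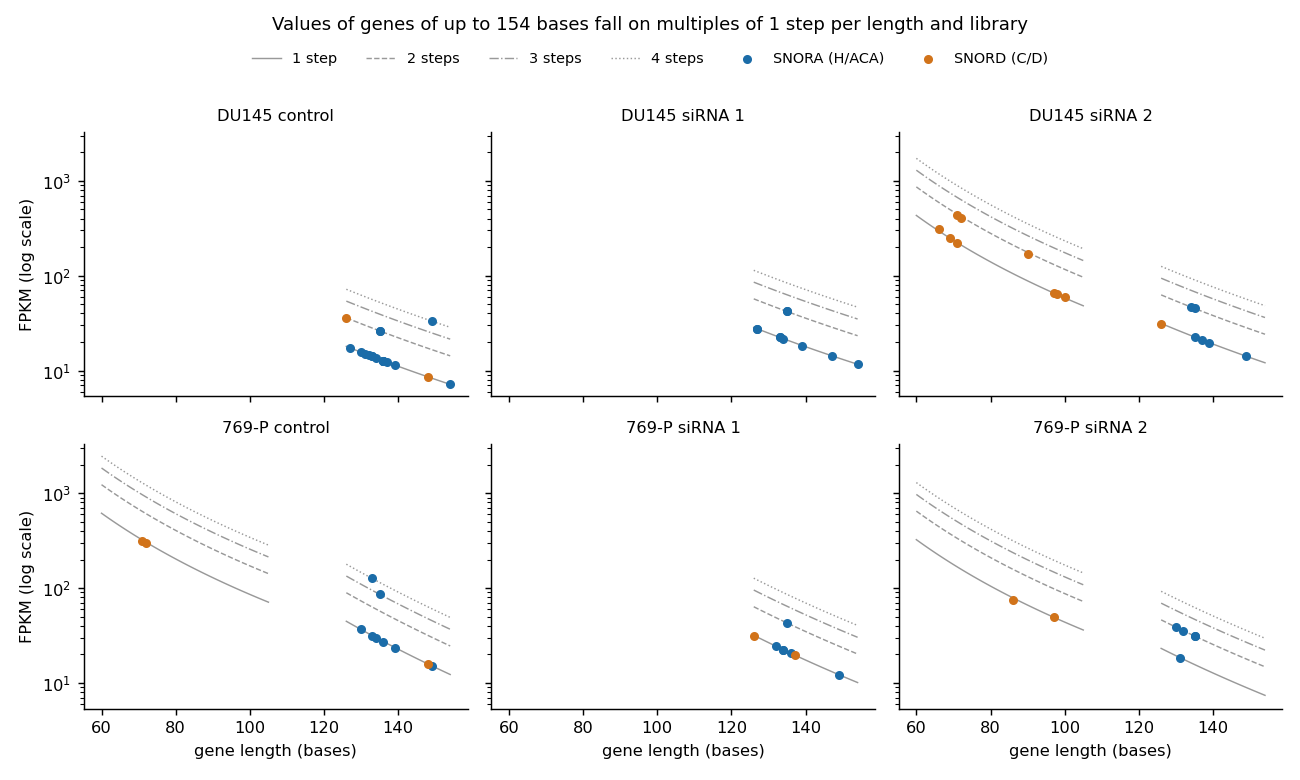
FPKM (log axis) against gene length for the SNORA (blue) and SNORD (orange) genes of up to 154 bases, one panel per library, with grey lines at 1 to 4 fitted steps drawn over the 2 length windows that were fitted and that hold such genes. Most points sit on the lowest line, and a 71-base gene at 1 step is near 219 FPKM in DU145 siRNA 2 where a 149-base gene at 1 step is at 14.1 FPKM.

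The step itself differed between libraries. At a length of 140 bases it was 11.1 FPKM in the DU145 control, 17.8 with siRNA 1 and 19.0 with siRNA 2, and 22.7, 17.4 and 12.7 FPKM in 769-P in the same order. The median FPKM of the SNORA genes above 0 was 14.1, 22.5 and 21.9 in DU145 and 30.8, 22.5 and 31.3 in 769-P. Counted in steps, the SNORA and SNORD genes of up to 154 bases together came to 25 in the DU145 control (95% exact Poisson interval 16.2 to 36.9), 12 with siRNA 1 (6.20 to 21.0) and 21 with siRNA 2 (13.0 to 32.1). In 769-P they came to 16 (9.15 to 26.0), 9 (4.12 to 17.1) and 11 (5.49 to 19.7). The intervals cover counting error only, and those of the control and of each siRNA library overlap in both lines. These totals are not scaled to the library, and 1 step was worth a different FPKM in each, so the overlap does not compare levels. The depth of the libraries is not given, and the part of depth and of fragment length in the step was not tested.

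**Figure D3:**
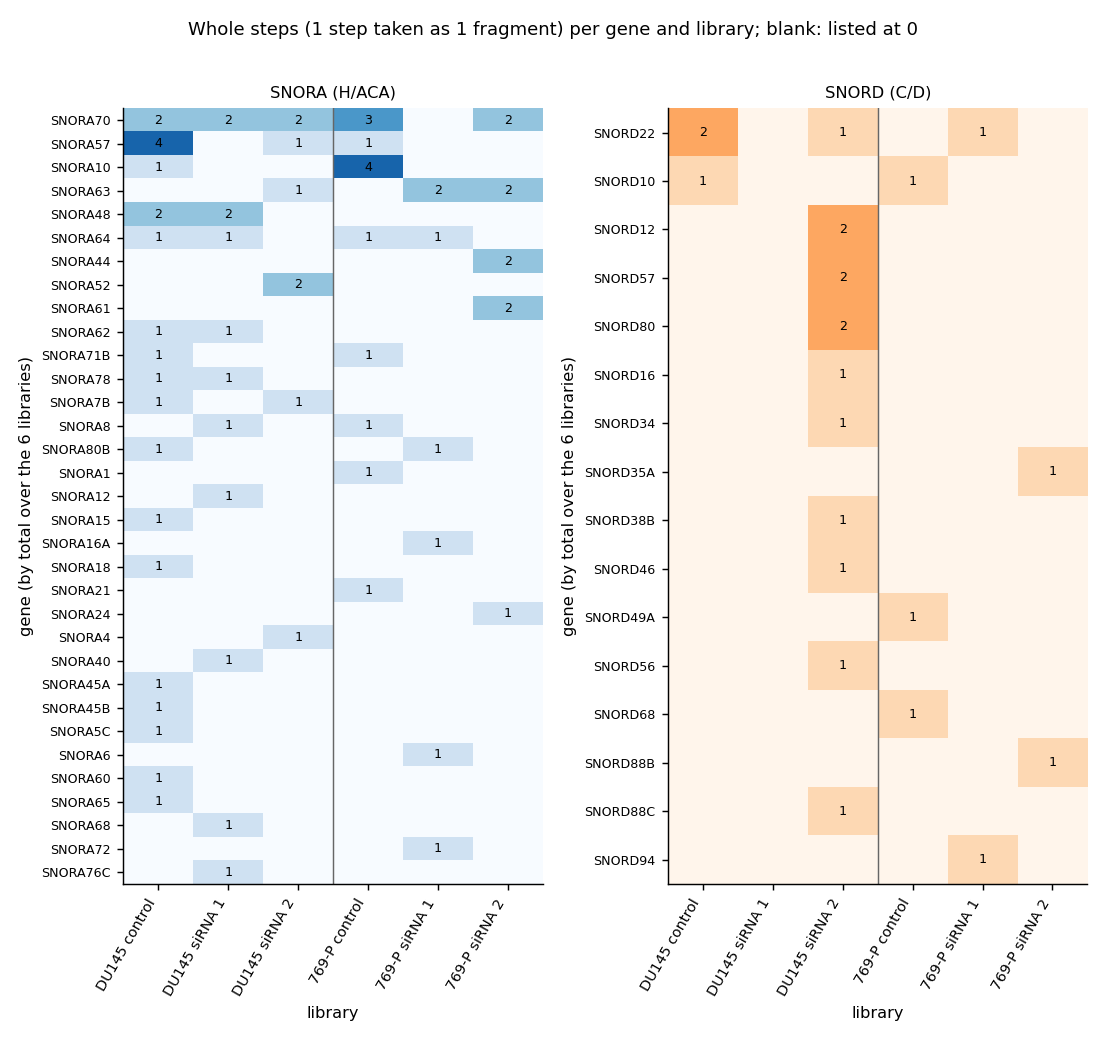
Whole steps (1 step taken as 1 fragment) of each of the 49 SNORA and SNORD genes of up to 154 bases in the 6 libraries, ordered by their total, with blank cells for genes listed at 0. Most cells are blank, single steps make up most of the filled ones (53 of 71), the highest values are 4 steps for SNORA57 in the DU145 control and for SNORA10 in the 769-P control, and the DU145 siRNA 2 column holds most of the SNORD steps.

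Among the H/ACA RNAs, SNORA70 had the highest mean, with 26.2 FPKM in the DU145 control, 42.0 with siRNA 1, 45.3 with siRNA 2, 85.8 in the 769-P control, 0 with siRNA 1 and 31.3 with siRNA 2. In steps these were 2, 2, 2, 3, 0 and 2. The count was thus equal in the 3 DU145 libraries, where the FPKM differed with the worth of a step. Counts of 2 are too few to tell whether its level changed. SNORA64, which shares RPS2 with SNORA10, was at 1 step in 4 libraries, with 13.6 and 21.7 FPKM in the DU145 control and siRNA 1 and 30.1 and 22.5 FPKM in the 769-P control and siRNA 1. SNORA10 stood at 14.1 FPKM in the control of DU145 and at 126 FPKM in that of 769-P, 1 and 4 steps, and was listed at 0 in the 4 siRNA libraries. RPS2, a protein of the small ribosomal subunit, had 1966 to 2606 FPKM in DU145. SNORA57 had 33.1 FPKM in the DU145 control and 14.1 with siRNA 2, and 15.2 in the 769-P control, which are 4, 1 and 1 steps.

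Several of these RNAs belong to families of near-identical copies, SNORA70, SNORA71B, SNORA7B, SNORA45A with SNORA45B, SNORD88B with SNORD88C and SCARNA9 with SCARNA9L among them, and the counting could have split or moved their reads. Their values are uncertain for that reason.

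The RNAs that act in cleavage of the ribosomal RNA precursor were a list of 17 names, of which 3 have rows and all 3 were above 0. SNORA63 (E3) had 22.6 FPKM in DU145 siRNA 2, 43.0 in 769-P siRNA 1 and 31.2 in 769-P siRNA 2, and was at 0 elsewhere. These values are 1, 2 and 2 steps. SNORA62 (E2) had 7.17 FPKM in the DU145 control and 11.7 with siRNA 1, 1 step each. SNORD22 (U22), a C/D RNA released from the noncoding gene SNHG1, had 35.5 FPKM in the DU145 control, 30.9 in DU145 siRNA 2 and 31.5 in 769-P siRNA 1, which are 2, 1 and 1 steps. Of 9 independently transcribed RNAs 1 has a row of its own, SCARNA2, and it was detected. Of 105 C/D genes of the imprinted clusters, the SNORD115 and SNORD116 repeats among them, 0 were above 0 in any library.

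Most values of C/D RNAs under 125 bases were in DU145 siRNA 2, where 9 of 234 were above 0, against 0 in the DU145 control, DU145 siRNA 1 and 769-P siRNA 1 and 2 each in the other 769-P libraries. In DU145 siRNA 2, SNORD80 (438 FPKM) and SNORD57 (411 FPKM) were at 2 steps, and so was SNORD12 at 170 FPKM. SNORD34 (311 FPKM), SNORD38B (250 FPKM), SNORD56 (219 FPKM), SNORD88C (65.8 FPKM), SNORD46 (63.7 FPKM) and SNORD16 (59.7 FPKM) were each at 1 step. SNORD49A with 316 FPKM and SNORD68 with 297 FPKM were at 1 step in the 769-P control, and SNORD35A (75.6 FPKM) and SNORD88B (49.3 FPKM) at 1 step in 769-P siRNA 2. The microRNA genes, which are of like length, did not set DU145 siRNA 2 apart, with 4 of 1415 under 125 bases above 0 there and 2 to 7 in the other libraries.

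The Cajal body RNAs and SNORD17 are longer and have lower FPKM. SCARNA12, SCARNA9, SNORD17 and SCARNA2 were above 0 in 4 or more libraries, SCARNA6 and SCARNA9L in 2 and SCARNA7 and SCARNA10 in 1. SCARNA12, which guides modification of the U5 spliceosomal RNA, had 9.65 FPKM in the DU145 control, 13.9 with siRNA 1 and 21.2 with siRNA 2, and 14.3, 25.9 and 8.55 FPKM in 769-P. The lines overlapped, and in 769-P the 2 siRNA libraries lay on either side of the control. SCARNA9, a guide for the U2 spliceosomal RNA, had 5.95, 4.30 and 4.37 FPKM in DU145 and 1.06, 0.971 and 2.93 FPKM in 769-P, so every DU145 value was above every 769-P value. Its copy SCARNA9L was at 1.08 FPKM in the control of 769-P and at 0.752 in 769-P siRNA 2 and was at 0 in DU145. The host of SCARNA9, CEP295, had 3.11, 2.21 and 1.92 FPKM in DU145 and 0.761, 0.892 and 0.443 FPKM in 769-P.

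SNORD17, a C/D RNA of 237 bases, had 11.0 FPKM in the DU145 control, 0 with siRNA 1 and 9.32 with siRNA 2, and 14.7, 13.1 and 4.95 FPKM in 769-P. Apart from the 0, values of the lines overlapped. SCARNA2, a guide for the U2 RNA with a promoter of its own, had 1.95 FPKM in the DU145 control and 0 with both siRNAs, and 3.18, 1.47 and 1.11 FPKM in 769-P. It was lower than the control with every siRNA in both lines. In DU145 this rests on the control library, in which most olfactory receptor genes also had values, and the part of that background was not tested. SCARNA6 had 2.84 FPKM in the DU145 control and 1.26 in 769-P siRNA 2, the 2 libraries in which most olfactory receptor genes also had values. The part of that background in the SCARNA6 values was not tested.

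**Figure D4:**
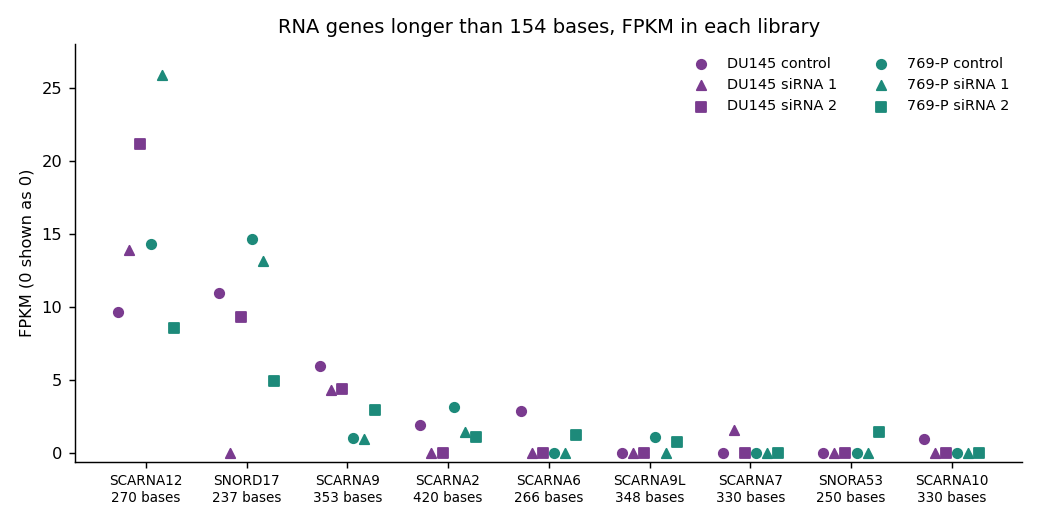
FPKM of the 9 genes longer than 154 bases in each library (purple DU145, green 769-P, circles controls, triangles siRNA 1, squares siRNA 2), with genes listed at 0 drawn at 0. SCARNA12 and SCARNA9 are above 0 in all 6 libraries, and SCARNA9 is higher in DU145 than in 769-P.

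Knockdown was compared as a change of at least 2-fold on log2(FPKM + 1) from the control of the line with both siRNAs, among genes whose mean over the libraries was 1 FPKM or more. Of the 58 genes 53 passed that filter, and those under it were SCARNA6, SCARNA7, SCARNA9L, SCARNA10 and SNORA53. In DU145, 13 of 53 were lower and 0 were higher, where 0.329% of all 11865 genes tested were lower and 0.666% higher. In 769-P, 10 of 53 were lower and 1 was higher, where 0.565% of all genes were lower and 0.657% higher. A value in the control alone is enough for a call of lower, while a call of higher needs values in both siRNA libraries. For genes seen at single steps the call therefore favours lower. These counts do not measure a direction of change, and their excess over all genes is not read as an effect of knockdown. The DU145 calls are read against the control in which 301 of 384 olfactory receptor genes were above 0, against 6 with each siRNA, and in which 18352 genes were above 0 against 15274 and 15273. The part of that background in these calls was not tested. In 769-P the library with that background is siRNA 2, and without it 10 were lower and 7 higher. The median change over the 53 genes was 0 in both lines on the log2 scale, beside 0.09 and -0.03 over all genes tested. In DU145 13 of the 53, and in 769-P 26, were at 0 in all 3 libraries of the line.

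In DU145 the genes called lower were SNORA10, SNORA15, SNORA18, SNORA45A, SNORA45B, SNORA57, SNORA5C, SNORA60, SNORA65, SNORA71B, SNORA80B, SNORD10 and SCARNA2. For 12 of them both siRNA values were 0, and 11 of them stood at 1 step in the control, at 8.55 to 15.6 FPKM. The exception by count was SNORA57 with 4 steps in the control, 0 with siRNA 1 and 1 with siRNA 2. Its ratio of control to siRNA 2 was 2.35, with an exact counting interval of 0.233 to 116. A control of 1 step and siRNA values of 0 are both under 3 fragments, the limit taken for a count of 0, so these are no fold changes. Only SNORA57 had more than 3 steps in the control, and SCARNA2 was too long for the step fit.

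In 769-P the genes called lower were SNORA1, SNORA8, SNORA10, SNORA21, SNORA57, SNORA70, SNORA71B, SNORD10, SNORD49A and SNORD68. For 9 of them both siRNA values were 0, and 8 of them stood at 1 step in the control. The control values of these 8 ran from 15.2 FPKM for SNORA57 to 316 FPKM for SNORD49A, all worth 1 step, so the size of the value followed the length of the gene. SNORA70 was at 3 steps in the control, 0 with siRNA 1 and 2 with siRNA 2. SNORA10 was the one gene with more than 3 steps in the control, 126 FPKM against 0 and 0. Set against 3 fragments in each siRNA library, it was at least 1.80-fold lower with siRNA 1 and at least 2.48-fold lower with siRNA 2, bounds that leave out the counting error of the 4 steps themselves (95% exact Poisson interval 1.09 to 10.2). SNORA63 was the gene called higher, from 0 in the control to 2 steps with each siRNA, which is under the same limit. SNORA10 and SNORA64 come from the same host, and SNORA64 had 1 step in the control and 1 with siRNA 1.

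With limma on 4 groups and an adjusted p threshold of 0.05, 10 of the 53 genes passed after knockdown in DU145, where 0.135% of all genes tested did, and 7 passed in 769-P, where 0.101% did. All 10 and all 7 were lower with the siRNAs, and the 10 in DU145 rest on the same control library with values for most olfactory receptor genes. Each of them was at 0 in all 4 siRNA libraries, so the spread that the test uses was 0 for them before limma moved it toward that of other genes. A gene at 0 in all siRNA libraries can only be lower than its control, so the shared direction is no result. SNORD80, seen only in DU145 siRNA 2, rose by 4.39 in DU145 with a standard error of 3.28 (limma adjusted p = 0.858) and did not pass. When either 769-P siRNA library was left out, 0 genes passed in both lines (limma, 13 in DU145 and 14 or 15 in 769-P at an unadjusted p under 0.05), and when only genes averaging 5 FPKM or more were tested, 1 passed in DU145. In DU145 SNORA45A fell by 4.06 on the log2 scale (standard error 0.23, limma adjusted p = 0.00695), from 1 step to 0. In 769-P SNORA10 fell by 6.99 (standard error 0.24, limma adjusted p = 0.00140), and SNORD49A, from 1 step, fell by 8.31 (standard error 0.24, limma adjusted p = 0.000847). SCARNA2, with values in 4 libraries, fell by 1.56 in DU145 (standard error 0.25, limma adjusted p = 0.452) and by 0.87 in 769-P (standard error 0.25, limma adjusted p = 0.693) and did not pass. SCARNA12 changed by 0.77 in DU145 (standard error 0.63, limma adjusted p = 0.867) and SCARNA9 by -0.38 (standard error 0.44, limma adjusted p = 0.908). Neither passed, against a spread that pools the siRNA libraries of both lines. Within DU145 both siRNA values of SCARNA12 were above the control, and both of SCARNA9 were below it.

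The difference in knockdown between the lines passed for 11 of the 53 genes, where 0.169% of all genes did. These were SNORD49A, SNORD68, SNORA1 and SNORA21, at 1 step in the 769-P control only, and SNORA15, SNORA18, SNORA45A, SNORA45B, SNORA5C, SNORA60 and SNORA65, at 1 step in the DU145 control only. A gene at 1 fragment in 1 control library and 0 in the other 5 therefore passed this test. With a pseudocount of 0.1, 0 of the 53 passed (limma, 14 at an unadjusted p under 0.05), and without either 769-P siRNA library 0 passed (21 without siRNA 1 and 20 without siRNA 2). Quantile normalization left the 4 genes of the 769-P control, and testing only genes averaging 5 FPKM or more left SNORD49A and SNORD68.

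Between the lines, with knockdown as a covariate, 6 of the 53 genes passed, where 50.3% of all genes tested did. SCARNA9 was lower in 769-P, with a difference of -1.21 on the log2 scale, 769-P minus DU145 (standard error 0.30, limma adjusted p = 0.00940), and SCARNA2 was higher, with a difference of 0.96 (standard error 0.23, limma adjusted p = 0.00748). SCARNA2 was above 0 in all 3 769-P libraries and in the DU145 control, whose 1.95 FPKM lies between the 769-P values, so the lines overlapped. The SCARNA9 call was lost under quantile normalization (limma adjusted p = 0.0629), without the DU145 control (0.0964) and without the 769-P control (0.0972), and SCARNA2 was the one gene that passed in each of these. The SCARNA2 call was lost without knockdown as a covariate (limma adjusted p = 0.106). The other 4, SNORA48, SNORA62, SNORA78 and SNORA7B, were at 1 or 2 steps in 2 DU145 libraries and at 0 in 769-P. SNORA48 had 26.3 FPKM in the DU145 control and 42.0 with siRNA 1, which are 2 steps each.

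Detection was then set beside the host genes. Of 52 listed genes whose host has a symbol of the ribosomal protein genes 19 were above 0 (36.5%). These include SNORA7B, whose host RPL32P3 is a transcribed pseudogene. Of 139 in other coding genes 24 were above 0 (17.3%) and of 162 in other noncoding genes 13 (8.02%). These other noncoding hosts hold all 105 genes of the imprinted clusters, and without these 13 of 57 were above 0 (22.8%), a higher share than in other coding genes. The host of a detected gene had a median of 76.5 FPKM over the 6 libraries (51 genes with a host row), against 26.3 FPKM for the hosts of genes at 0 (215 genes). For SNORA genes these medians were 61.0 and 25.7 FPKM and for SNORD genes 124 and 32.6 FPKM, and the order was the same in each of the 6 libraries. Some genes share a host, and TAF1D held 4 of the detected genes (SNORA1, SNORA8, SNORA18 and SNORA40) and SNHG12 held 3, so the hosts are not independent. Among single genes a high host and a high count did not always go together. SNORA10 in RPS2 was at 0 in all siRNA libraries while RPS2 was at 2387 and 2458 FPKM in the 769-P ones, and SNORA57 was at 4 steps in the DU145 control where CSKMT had 2.80 FPKM.

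**Figure D5:**
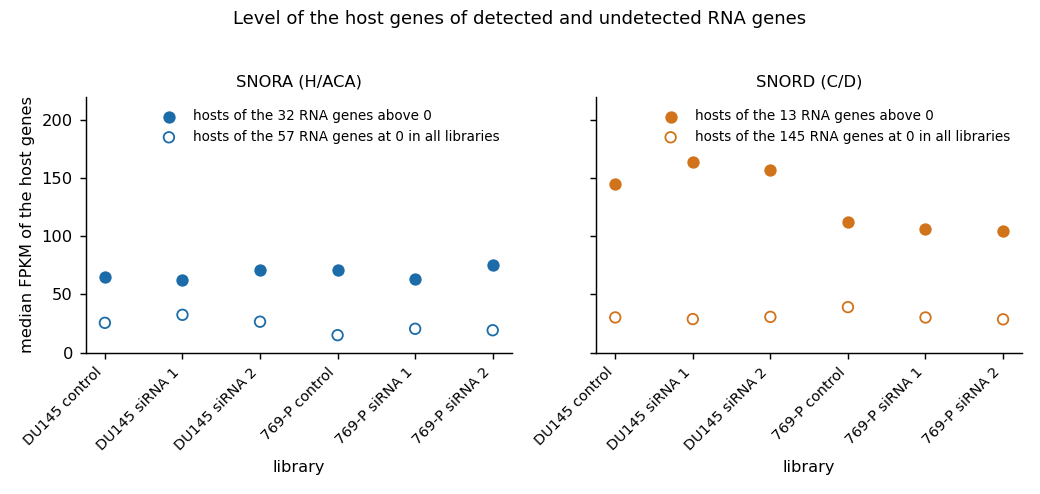
Median FPKM of the host genes in each library for RNA genes above 0 in at least 1 library (filled circles) and for RNA genes at 0 in all libraries (open circles), SNORA left and SNORD right, without error bars. The filled circles lie above the open ones in all 6 libraries for both classes, at 62.8 to 75.1 FPKM for SNORA and 105 to 164 FPKM for SNORD.

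The proteins that bind and build these particles were described from lists. Of 32 genes named on 5 lists, 29 have a row of their own and all 29 were tested, and 0 passed 2-fold with both siRNAs in either line. Of all genes tested 0.329% to 0.666% passed, by line and direction, so 0 of 29 does not set these genes apart. In the C/D particle FBL, the methyltransferase, had 168 FPKM in the DU145 control, 179 with siRNA 1 and 140 with siRNA 2, and 186, 214 and 150 FPKM in 769-P. NOP58, a core C/D protein, had 40.0, 28.8 and 29.6 FPKM in DU145 and 52.2, 34.1 and 34.8 FPKM in 769-P, lower with each siRNA in both lines but not passing (limma adjusted p = 0.801 and 0.693). In the H/ACA particle NHP2 had 108, 133 and 70.4 FPKM in DU145 and 134, 188 and 115 FPKM in 769-P, on either side of the control. With limma 0 of the 29 passed for knockdown in either line (1 in DU145 and 4 in 769-P at an unadjusted p under 0.05), where 0.135% and 0.101% of all genes did. Between the lines 6 of 29 passed, 4 higher and 2 lower in 769-P, where 50.3% of all genes passed. NOP10, a small core protein of the H/ACA particle, was lower in 769-P than in DU145, with a log2 difference of -0.56 (standard error 0.13, limma adjusted p = 0.00709).

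NOLC1, a nucleolar and Cajal body chaperone of these particles, had 33.9 FPKM in the DU145 control, 54.9 with siRNA 1 and 79.3 with siRNA 2, and 35.0, 66.5 and 71.8 FPKM in 769-P. All 4 siRNA values were above both controls. Its log2 change was 0.94 in DU145 (standard error 0.28, limma adjusted p = 0.769) and 0.96 in 769-P (standard error 0.28, limma adjusted p = 0.693), which did not pass. At 1.5-fold with both siRNAs it was the one gene of the lists that was higher, in both lines, where 4.72% of all genes were higher in DU145 and 3.60% in 769-P. RPAP3, an assembly cofactor, and DBR1, which opens intron lariats, were lower at 1.5-fold in 769-P, where 3.73% of all genes were. The median log2 change of the lists ran from -0.15 to 0.07 in DU145 and from -0.31 to 0.11 in 769-P.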

How the data were processed

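RNA-Seq was performed on poly(A)-selected RNA of 6 libraries, 1 per cell line and siRNA. The authors trimmed 100-bp paired-end reads, aligned them with TopHat2 (at most 2 mismatches, hg19) and deposited Cufflinks FPKM values, 1 per gene. The annotation, the versions and the use of strand are not given in the sources used here, and the labels and the methods name different library kits. The methods give 2 biological replicates per sample, and the labels 1 library.

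Rows with the same symbol were summed. Names, lengths and hosts were matched to RefSeq for all 356 genes, 3 of the 58 by an older symbol. Positions were taken from GENCODE on GRCh37 where symbol, chromosome and length matched 1 gene, and sequences from that genome. A step per library was fitted as a power of length in 2 windows. log2(FPKM + 1) was tested for genes averaging 1 FPKM or more by limma 3.58.1 in R 4.3.3 (eBayes with trend, Benjamini-Hochberg adjustment over all genes), which understates changes of low values. The fold call and the step fit were tried on simulated data in Python 3.11.15, and limma on simulated data in R. For the fold call and limma every gene had the same noise around its mean. Single steps beside values of 0 were not simulated there. A 0 was taken to mean only that a gene is listed at 0.

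The genes and lists were chosen with earlier results of these data known. Genes named are those called in a comparison (up to 10 per direction or contrast), the 5 highest per class and the list genes. SCARNA7, SCARNA10, SNORA40, SNORA53, SNORD12, SNORD16, SNORD34, SNORD35A, SNORD38B, SNORD46, SNORD56, SNORD88B and SNORD88C were named after their values were seen. NOP56, DKC1 and SMN1 share rows with other symbols and were not analysed here. A prostate marker of the fixed list is not reported here.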

Additional observations from a re-analysis of the deposited data

Results flagged for a closer look

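The limma test of the difference in knockdown between the lines (DU145 minus 769-P, log2 scale, 1 control and 2 siRNA libraries per line) passed for 11 of the 53 genes. Of all genes tested 0.169% passed. The difference was positive for SNORD49A (8.31), SNORD68 (8.22), SNORA1 (5.24) and SNORA21 (5.03), with limma adjusted p from 0.00471 to 0.016. It was negative for SNORA45A (-4.06), SNORA45B (-4.01), SNORA18 (-3.96), SNORA15 (-3.91), SNORA60 (-3.77), SNORA65 (-3.77) and SNORA5C (-3.73), with limma adjusted p of 0.0307 or 0.0311. All 11 rest on 1 step in 1 control library and 0 in the other 5 libraries. Their siRNA values therefore had no spread, and these calls do not show that knockdown acted differently in the lines. Under quantile normalization the 7 negative ones did not pass (limma adjusted p = 0.0848 each), and with a pseudocount of 0.1 none of the 11 did.

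SNORA70 was higher with both siRNAs in DU145 and lower with both in 769-P, a difference of 4.65 with a limma adjusted p of 0.999, which did not pass. In steps its DU145 libraries were equal, at 2 each.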

How the results depend on the processing

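SNORA and SNORD values of genes up to 154 bases rest on 1 to 4 steps, which limits every comparison of single genes among them, and a call at 1 step is set by whether 1 fragment was seen. Of the 111 alternatives computed, 70 left a count within 1.5 times, or a level within 1 SD between libraries, of the reported value, and 41 did not. These are counts and levels without a sign, so a change of direction was not looked for. Counting only genes with more than 3 steps, an alternative added after seeing the data, left 1 lower in each line and 0 higher in 769-P. Of the fold calls, a mean of at least 5 FPKM left 4 lower in DU145 and the 1.5-fold call gave 1 higher there. Without one siRNA library, those higher in DU145 numbered 5 to 13 and those higher in 769-P 6 to 7, while those lower numbered 16 to 17 in DU145 and 10 to 12 in 769-P.

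Genes passing limma for knockdown numbered 1 in DU145 with a mean of at least 5 FPKM and 4 in 769-P with no filter, and 0 to 21 in DU145 and 0 to 5 in 769-P without one siRNA library (0 in both without either 769-P siRNA library, 21 in DU145 without DU145 siRNA 1 and 4 in 769-P without DU145 siRNA 2, where the lone library is assumed to vary like the others). For the difference between the lines, a pseudocount of 0.1 left 0, quantile normalization 4, a mean of at least 5 FPKM 2 and single siRNA libraries left out 0 to 26 (26 without DU145 siRNA 1, 17 without DU145 siRNA 2). The replicate block on the siRNA number left 3, SNORD49A, SNORD68 and SNORA1, all positive, and 0 of the 7 negative ones (limma adjusted p = 0.107 each). The numbers name the same siRNA in both lines and form 2 pairs, and the correlation across genes of siRNA 2 minus siRNA 1 between the lines was 0.27. The block left the other limma counts within 1.5 times. Between the lines, no filter and a mean of at least 5 FPKM left 2, quantile normalization 1, and leaving out 1 library gave 1 to 15 (15 without DU145 siRNA 1, 1 without either control, 2 without 769-P siRNA 2).

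Over the libraries a median of 25.9% of the 58 genes was above 0, or 4.21% of those listed (SNORA 20.6% and 7.45%, SNORD 17.6% and 1.24%, SCARNA 50% and 16.7%), and 14.3% of SCARNA genes reached 10 FPKM. The median level of 21.6 FPKM became 0 with zeros included and 3.0 as FPKM times length in kb, and that of SNORA, 22.5 FPKM, became 0 and 3.0.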

Other observations

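A further 17 rows name a small nucleolar or Cajal body RNA together with another gene and were left out of the counts, since their values cannot be assigned to one of the names. Of these, 14 were above 0 in at least 1 library and 11 in all 6. The row of MIR1291 and SNORA34 had 12.2 FPKM in the DU145 control and 0 elsewhere, the same value as SNORA5C in that library. The row of MIR1248 and SNORA81 had 12.3, 13.5 and 13.9 FPKM in the 3 DU145 libraries and 0 in the 3 of 769-P. The row of SCARNA17 and SNHG22 had 3.23, 2.39 and 3.33 FPKM in DU145 (control, siRNA 1, siRNA 2) and 2.67, 8.78 and 11.8 FPKM in 769-P, where both siRNA values were above the control.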
